A study of Mus musculus with 8 samples.

Results

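The libraries described here are both untreated Ern1f/f libraries of the series, replicate 1 and replicate 2, chosen by title from 8 libraries in 4 groups of 2. They hold RNA of macrophages grown from leg bone marrow (femur and tibia). The mice were male, of the C57BL/6J strain and aged 8 weeks. The marrow cells were kept for 7 days in a medium made with L929 cells, a fibroblast line that secretes the growth factor CSF1, and received no IL-4. Ern1f/f denotes a floxed Ern1 gene, which encodes the endoplasmic reticulum stress sensor IRE1α. Every group of the series carries the floxed gene, and by title these cells carry no Cre recombinase. The other groups add Cre from the Lyz2 locus, IL-4, or both, in the same culture. Levels, ranks and shares are described across genes, with no contrast of treatment or genotype and no test.

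A bone marrow-derived macrophage is a cultured phagocyte that CSF1 drives out of marrow progenitors. Such cells engulf particles, digest them in lysosomes, store the iron they recover in ferritin, and can present antigen to T cells. CSF1 acts through the receptor encoded by Csf1r, and the transcription factor PU.1 is needed for the lineage to form.

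The labels conflict on these libraries. The genotype field gives Ern1f/f for each library numbered 1 and Ern1f/fLyz2-Cre for each library numbered 2, against the title in 4 of 8 libraries, and replicate 2 here is one of them. Lyz2-Cre is a knock-in that interrupts Lyz2, so the Lyz2 level was read as a check of the labels. Lyz2 was at 18114 and 17415 FPKM in replicates 1 and 2 of the untreated Ern1f/f cells, and at 10949 and 2171 FPKM in the untreated libraries titled Ern1f/fLyz2-Cre. Both libraries with the Ern1f/f title were above both with the Cre title. The IL-4 libraries stood in the same order, at 8901 and 11961 FPKM against 5779.5 and 1572 FPKM. The labels do not say whether replicates are separate mice or cultures, so the spread between the libraries may be technical or biological.

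Each library had 23838 rows, which came to 23354 gene symbols once the values of repeated symbols were added up. Levels are in FPKM, fragments scaled by transcript length and library size, a scale per length on which genes can be compared. In what follows each pair of values gives replicate 1 first and replicate 2 second. The depth implied by the deposited confidence intervals was about 30600000 and 31500000 fragments, within a range of 23400000 to 37800000 fragments over all 8 libraries. Their median half-width was 9.85% and 10.3% of the level for genes with a mean of 1 to 10 FPKM, and 1.23% and 1.14% for genes above 1000 FPKM. These intervals cover the uncertainty within 1 library, not the spread between libraries.

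The libraries stood apart in several gene groups, and each result below that rests on them is given for both. The fibroblast and stromal list of 20 genes summed to 2046 and 1869 FPKM, most of it from Vim and S100a4, which macrophages also express. Without these, the summed level of the other 18 markers was 458 and 19.6 FPKM. That of 28 interferon-stimulated genes was 589 and 2537 FPKM. The same split followed the replicate number through the series: the 4 libraries numbered 1 had a sum of these 18 markers of 199.6 to 1101 FPKM and an interferon sum of 452 to 589 FPKM, against 7.27 to 19.6 and 2331 to 2776 FPKM in the 4 numbered 2. What the number marks is not given, so a property of the number and the spread of cultures cannot be told apart. The untreated pair with number 1, 1 library of each genotype by title, had 295 genes over 2-fold apart, against 1057 for the pair described here.

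Total FPKM, which is per transcript length and so gives no share of sequenced fragments, was concentrated in few genes. The most abundant gene held 4.59% and 5.05% of total FPKM, the 10 most abundant 21.1% and 17.6%, the 100 most abundant 48.0% and 45.9%, and the 1000 most abundant 77.6% and 77.3%. It took 116 and 130 genes to reach 50% of the total. Of these shares that of the top 10 differed most. Apoe held 3.31% and 0.842% of the total, and was among the top 10 in replicate 1 only. At the other end, 12556 of 23354 symbols were under 1 FPKM in both libraries and 9952 were at or above it in both, with 571 above it only in replicate 1 and 275 only in replicate 2. The counts of detected list members below stand beside this share of 9952 of 23354, and the lists were chosen with earlier results known. Genes with a GENCODE protein-coding gene of the same name at the same place held 93.9% and 93.6% of the total. The mean level was 1000 FPKM or more for 85 genes, 100 to 1000 for 638, 10 to 100 for 4549 and 1 to 10 for 5206.

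**Figure D1:**
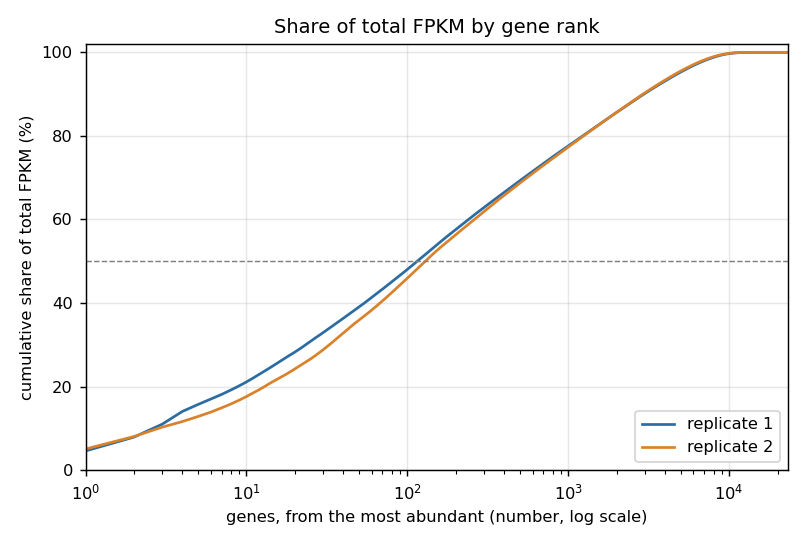
Cumulative share of total FPKM (vertical axis, percent) against the number of genes counted from the most abundant (horizontal axis, log scale), 1 line for each library. Replicate 1 is the higher at 10 genes (21.1% and 17.6%), the lines nearly meet at 1000 genes (77.6% and 77.3%), and the dashed line marks 50%.

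The leading transcripts were those of ferritin, lysozyme, apolipoprotein E and a lysosomal protease. Fth1, the ferritin heavy chain that oxidises and stores iron, was first in both libraries at 27339.6 and 29412 FPKM, a mean of 28376 ± 1465 FPKM (SD, n = 2). It lies at chr19:9980600-9985111 in mm10, and it was also first in the 6 other libraries of the series, at 18491 to 25942 FPKM. Ftl1, the ferritin light chain, ranked 3 and 3 at 18566 and 13096 FPKM. Lyz2, lysozyme M of myeloid cells (chr10:117277541-117282272), ranked 4 and 2 with a mean of 17764 ± 494 FPKM (SD, n = 2). Its libraries were 1.04-fold apart, so Lyz2 is among the 20 closest of the 200 leading genes. Lyz1, a near-identical neighbour read at 42.3 and 125 FPKM, may share reads with it. Ctsd, the aspartic protease cathepsin D, ranked 5 and 4 at 9887 and 7771 FPKM.

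Apoe, the lipid carrier that macrophages secrete (chr7:19696244-19699166), was the exception among the leaders. It ranked 2 and 11, at 19709 and 4905 FPKM, which is 4.02-fold higher in replicate 1 with deposited intervals of 19662 to 19755 and 4882 to 4927 FPKM. In the other libraries Apoe was at 14199 to 22859 FPKM where numbered 1 and at 2558 to 6486 FPKM where numbered 2. Below these came Tmsb4x, thymosin beta 4, which binds actin monomers, at 5899 and 7027 FPKM, Psap, the precursor of the saposins that help degrade sphingolipids, at 5641 and 5376 FPKM, and B2m, the light chain of MHC class I, at 4936 and 4627 FPKM. These were within 1.5-fold between the libraries. Eef1a1, which delivers aminoacyl-tRNA to the ribosome, was nearly equal in both at 4402 and 4429.8 FPKM.

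**Figure D2:**
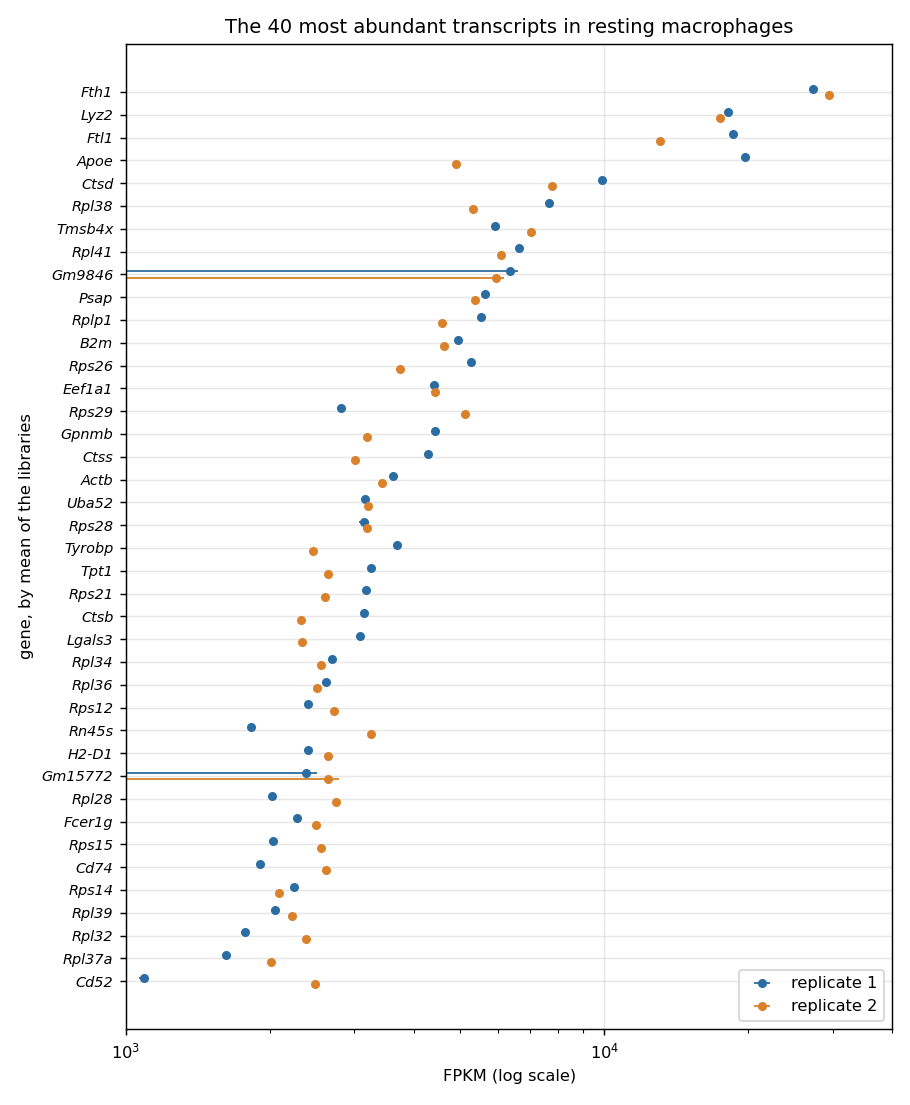
FPKM (horizontal axis, log scale) of the 40 genes with the highest mean, 1 point for each library with its deposited confidence interval, most of them narrower than the point. Fth1 leads in both libraries, Apoe is 4.02-fold apart (19709 and 4905 FPKM) and the intervals of Gm9846 and Gm15772, which reach down to 0, are cut at the left edge.

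The protein synthesis machinery was the largest class among the top 100 genes by mean. Of these 100, 43 encode ribosomal proteins by the list used here, and 3 more rows lie on ribosomal protein genes under another symbol. Next came 7 actin cytoskeleton genes, 6 lysosomal proteases and inhibitors, 5 other lysosomal proteins, 3 translation factors, 3 MHC class I genes and 3 Fc receptor or adaptor genes. There were 11 in no list, among them Cd52, a short surface glycoprotein of leukocytes, at 1089 and 2485 FPKM, and Itm2b, a membrane protein, at 1591 and 1483 FPKM. Rps3a1, also a ribosomal protein gene though outside the list, was at 788 and 1037 FPKM. The top 100 of replicate 1 and of replicate 2 shared 87 symbols. The top 100 by mean shared 86 to 93 symbols with the top 100 of each of the 6 other libraries. These leaders were short: their median transcript length was 772 bases over the 95 with a length in GENCODE, against 2084 bases for the genes at 1 FPKM or more in both libraries.

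Ribosomal proteins held the largest share of any list, 17.7% and 18.9% of total FPKM. Of 82 members 79 were at 1 FPKM or more in both libraries, and 75 of the 80 with a mean of at least 1 FPKM were within 1.5-fold, which over all such genes held for 78.5%. The highest were Rpl38 at 7665 and 5317 FPKM, Rpl41 at 6621 and 6073 FPKM, Rplp1, a protein of the acidic stalk, at 5523 and 4574 FPKM and Rps26 at 5275 and 3737 FPKM. The members did not stand at one level: Rpl3 was at 489.9 and 489.6 FPKM, Rpl22 at 108 and 118 FPKM and Rps15a at 82.5 and 112 FPKM. Rps29 was further apart than the other members above 1000 FPKM, at 2816 and 5119 FPKM. Rpl10l and Rpl3l, copies restricted to other tissues, were under 1 FPKM in both libraries.

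Some low ribosomal values belonged to rows that overlap another row. Rps27 was at 5.9 and 7.65 FPKM, while Gm9846, whose row covers 86.8% of the joint span with the GENCODE Rps27 gene (chr3:90212667-90213647), was at 6360.1 and 5936 FPKM. Likewise Rpl26 was at 1.15 and 2.23 FPKM and Gm15772 at its place at 2378 and 2649.9 FPKM, and Rpl30 at 35.7 and 40.7 FPKM and Gm12191 there at 1562 and 1877 FPKM. The fragments of a shared locus may be divided between rows, so the level of each of these genes is uncertain. The deposited intervals of Gm9846 ran from 0 to 6611 and from 0 to 6163 FPKM. With these 3 rows the ribosomal share was 19.4% and 20.7%.

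Ribosomal protein transcripts are known for a run of pyrimidines at their first bases, and it is shown here because this class led the table. RefSeq promoter windows of GRCm38.p6 (250 bases before to 50 after the start) were matched to 16993 symbols by name within 500 bases of the deposited start. A run was counted where a C followed by at least 5 C or T on the gene's strand began within 5 bases of the start. It was present in 25 of 60 ribosomal windows (41.7%), in 3 of 17 translation factor windows (17.6%), in 5 of 37 lysosomal windows (13.5%), in 21 of 72 of the top 100 (29.2%) and in 1729 of all 16993 (10.2%). The 4 highest members of the ribosomal and translation lists with a run follow from 40 bases before to 20 after the start, with the run in capitals, each printed 5′ to 3′ on the strand of its gene, as are all stretches here. They lie at chr11:114668540-114668599 (plus strand), chr10:128626487-128626546 (minus strand), chr9:78481705-78481764 (minus strand) and chr2:180257339-180257398 (plus strand).
Rpl38: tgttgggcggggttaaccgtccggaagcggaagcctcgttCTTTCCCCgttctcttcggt
Rps26: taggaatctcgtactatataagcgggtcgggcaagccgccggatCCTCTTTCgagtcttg
Eef1a1: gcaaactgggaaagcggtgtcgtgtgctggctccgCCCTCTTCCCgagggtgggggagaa
Rps21: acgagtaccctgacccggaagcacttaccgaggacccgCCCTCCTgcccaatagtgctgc

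Translation factors held 2.03% and 2.11%. All 23 were at 1 FPKM or more in both libraries and 21 were within 1.5-fold, against 78.5% of all genes. After Eef1a1 came Tpt1, a translationally controlled tumour protein gene, at 3254 and 2648 FPKM, Eef2, the translocation factor, at 892 and 969 FPKM and Pabpc1, the poly(A)-binding protein, at 365 and 389 FPKM. Initiation factors were lower, with Eif4a1, the RNA helicase, at 307 and 360.2 FPKM and the cap-binding Eif4e at 19.7 and 25.2 FPKM.

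By number of genes the lysosomal lists came next in the top 100, with 11, whereas by level the 2 ferritin genes held more, 7.70% and 7.30% of total FPKM. The 16 proteases and inhibitors held 4.03% and 3.3% and the 31 other lysosomal genes 3.25% and 2.8% of the total. All were at 1 FPKM or more in both libraries, and 14 and 26 were within 1.5-fold, against 78.5% of all genes. Ctss, a cysteine protease that trims the invariant chain, was at 4279 and 3013 FPKM, Ctsb at 3145 and 2327 FPKM and Ctsz at 1242 and 1387 FPKM. Their inhibitors Cst3 and Cstb were at 1797 and 1552 FPKM and at 1638 and 1248 FPKM. Gpnmb, a glycoprotein of lysosome-rich macrophages, was at 4434 and 3191 FPKM, and the membrane proteins Lamp1 and Cd63 were at 898 and 806 FPKM and at 1120.0 and 963 FPKM. Hydrolases were lower, with Lipa, acid lipase, at 666 and 397 FPKM, Hexa at 577 and 425 FPKM and Smpd1, acid sphingomyelinase, at 15.5 and 13.2 FPKM. Ctsk, the collagenase of osteoclasts, and Ctse were the pair over 2-fold higher in replicate 2, at 12.7 and 39.1 FPKM and at 2.41 and 14.6 FPKM. Atp6v0c, a proton pump subunit, and Scarb2 were over 2-fold higher in replicate 1, at 358 and 121 FPKM and 75.6 and 37.6 FPKM. Atp6v0c-ps2, whose row covers the same place, was at 948 and 1172 FPKM, so the level of Atp6v0c is uncertain.

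Lysosomal promoters are known for a palindromic motif bound by TFEB and TFE3, which holds the letters CACGTG. Tfeb was at 32.1 and 24 FPKM and Tfe3 at 53.3 and 58 FPKM, both detected in both libraries. CACGTG, which reads the same on both strands, occurred in 10 of 37 lysosomal windows (27.0%), in 4 of 17 translation factor windows (23.5%), in 5 of 60 ribosomal windows (8.33%), in 11.1% of the 7802 windows of genes at 1 FPKM or more in both libraries and in 8.25% of all. Matches of 1 motif that overlap were kept and motifs were counted separately. The stretches below are from the 3 highest lysosomal genes with a match, with the match in capitals, at chr7:142388047-142388077 (minus strand), chr8:13159080-13159125 (plus strand) and chr13:64370731-64370770 (minus strand).
Ctsd: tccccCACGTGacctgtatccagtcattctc
Lamp1: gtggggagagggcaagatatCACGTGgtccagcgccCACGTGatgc
Ctsl: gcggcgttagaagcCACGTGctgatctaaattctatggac

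Iron and lipid handling followed the ferritins and Apoe. Ferritin apart, the iron genes were much lower: Hmox1, which frees iron from haem, was at 292 and 349 FPKM, Slc11a1, an iron and manganese exporter of the phagosome, at 258 and 252 FPKM and Slc40a1, the iron exporter ferroportin, at 35 and 20.7 FPKM. Tfrc, the transferrin receptor, was at 24.2 and 80.3 FPKM and Cp, the ferroxidase ceruloplasmin, at 3.5 and 28 FPKM, both over 2-fold higher in replicate 2. The lipid list held 4.29% and 1.53%, a gap that Apoe carried. Fabp5 and Fabp4, fatty acid binding proteins, were at 2212 and 1292 FPKM and at 388 and 236 FPKM, Lpl, lipoprotein lipase, at 621 and 439.6 FPKM and Plin2, a lipid droplet coat protein, at 407 and 309 FPKM. Fasn, fatty acid synthase, was at 12.3 and 10.4 FPKM.

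**Figure D3:**
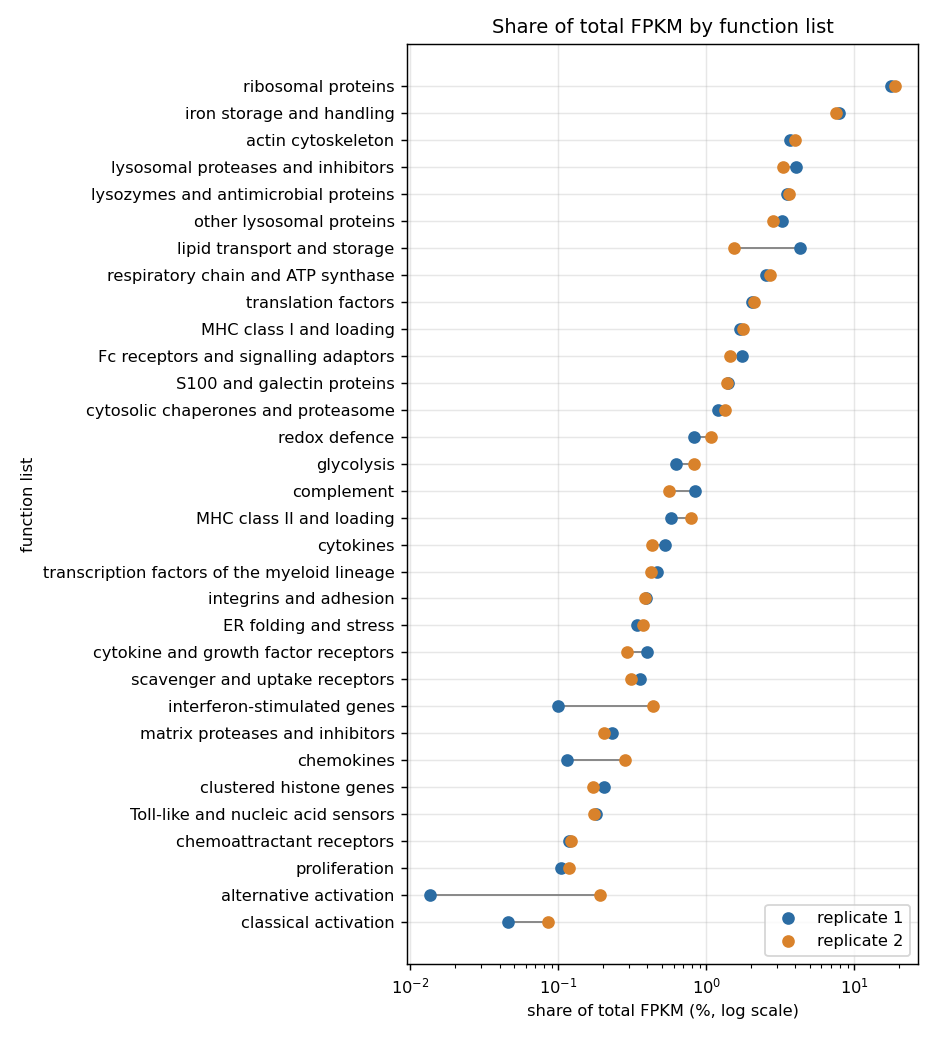
Share of total FPKM (horizontal axis, percent, log scale) of each function list, 1 point for each library joined by a line. Ribosomal proteins lead at 17.7% and 18.9%, most lists have nearly equal shares in both libraries, and long lines belong to lipid transport, interferon-stimulated, chemokine and alternative activation genes.

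The actin cytoskeleton list held 3.65% and 3.98%, and 29 of its 31 members were within 1.5-fold, against 78.5% of all genes. Actb was at 3621 and 3431 FPKM, Pfn1, profilin, at 1396 and 1329 FPKM, Cfl1, cofilin, at 1007 and 1353 FPKM and Vim, an intermediate filament gene, at 1135 and 1132 FPKM. Fscn1, the actin bundler of dendritic cells, was the member over 2-fold higher in replicate 1, at 10.5 and 2.55 FPKM.

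Antigen presentation genes were abundant for both classes. MHC class I and loading genes held 1.69% and 1.77%, led after B2m by the heavy chains H2-D1 at 2400.2 and 2643 FPKM and H2-K1 at 989 and 1138 FPKM. H2-L was at 249 and 2.02 FPKM, but its row overlaps that of H2-D1, and reads of this multigene family may be split between rows, so its level is uncertain. Class II genes held 0.573% and 0.791%. Cd74, the invariant chain, was at 1903 and 2615 FPKM, H2-Aa at 607 and 899 FPKM, H2-Ab1 at 519 and 641 FPKM and H2-Eb1 at 282 and 339.6 FPKM, and Ciita, their transactivator, at 5.99 and 5.53 FPKM. H2-Oa and H2-Ob, the DO chains of B cells, were under 1 FPKM in both.

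Levels of macrophage markers were read beside the cell label. The lists were chosen with earlier results of these data known, so they are no independent check of it. Csf1r, the CSF1 receptor, ranked 109 and 187 at 769.6 and 429 FPKM, and Cd68, a lysosomal glycoprotein of macrophages, ranked 77 and 126 at 1001 and 737 FPKM. With Lyz2 and Fth1 these are the 4 markers named for the cells. All 30 members of the macrophage identity list were at 1 FPKM or more in both libraries, all of them above 10 FPKM. Emr1, the gene of F4/80 (now Adgre1), was at 632 and 737 FPKM, Itgam, CD11b, at 202 and 189 FPKM, Tyrobp, the adaptor DAP12, at 3679 and 2462 FPKM and Fcer1g, the common Fc receptor gamma chain, at 2273 and 2492 FPKM. Within the list 18 of 30 members were within 1.5-fold, a smaller share than the 78.5% of all genes. Mertk, a receptor for dying cells, was 2.05-fold higher in replicate 1, at 37.6 and 18.4 FPKM, and Aif1, the gene of IBA1, was 2.55-fold higher in replicate 2, at 116 and 297 FPKM. In bulk RNA, fewer cells of a type and less RNA per cell cannot be told apart.

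PU.1 and other ets factors bind sites with a GGAA core, and AGGAAGT was searched on both strands as a short form of it. It occurred in 4 of 20 macrophage identity windows (20.0%), in 12 of 60 ribosomal windows (20.0%), in 6 of 37 lysosomal windows (16.2%), in 12 of 72 of the top 100 (16.7%), in 9.81% of windows of genes at 1 FPKM or more in both libraries and in 9.27% of all. The share in macrophage identity windows was thus no higher than that in ribosomal windows. The 4 genes were Lyz2, Cd53, a leukocyte tetraspanin at 169.6 and 145 FPKM, Ptprc, the phosphatase CD45, at 73.6 and 86.1 FPKM, and Fcgr1, the high-affinity IgG receptor, at 43.7 and 85.5 FPKM. Their stretches, with 1 match each in capitals, lie at chr10:117282346-117282392 (minus strand), chr3:106790130-106790163 (minus strand), chr1:138175392-138175438 (minus strand) and chr3:96294004-96294050 (minus strand).
Lyz2: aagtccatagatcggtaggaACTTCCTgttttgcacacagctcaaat
Cd53: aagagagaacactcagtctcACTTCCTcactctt
Ptprc: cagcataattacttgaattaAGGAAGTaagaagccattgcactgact
Fcgr1: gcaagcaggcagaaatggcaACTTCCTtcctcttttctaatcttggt

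Transcription factors were far below the structural genes in level. Of 56 myeloid factors 50 were at 1 FPKM or more in both libraries, with a list median of 30.6 and 25 FPKM. Sfpi1, the gene of PU.1 (now Spi1), was the highest at 351 and 446 FPKM and ranks 225 and 181. Then came Atf3, a stress-induced factor, at 149 and 189 FPKM, Id2 at 179 and 155 FPKM, Id3 at 248 and 59.6 FPKM, Nfe2l2, the regulator of redox genes, at 171 and 115 FPKM and Irf5 at 118 and 100.4 FPKM. Irf8, needed for monocytes, was at 66.6 and 55 FPKM, Cebpa at 88.9 and 37.8 FPKM, Maf at 70.4 and 72 FPKM and Nr1h3, the oxysterol receptor LXRα, at 82.1 and 31.4 FPKM. Of the list, 30 of 50 with a mean of at least 1 FPKM were within 1.5-fold, also a smaller share than the 78.5% of all genes. Ets2 was 5.66-fold higher in replicate 2 and Id3 4.16-fold higher in replicate 1. The factors Gata1, Gata2, Gata6, Cebpe, Irf4 and Fosb were under 1 FPKM in both.

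Most receptor and sensor genes of the lists used were detected, against 9952 of all 23354 symbols at 1 FPKM or more in both libraries. These lists were chosen with earlier results of these data known. Of 27 cytokine and growth factor receptors 24 were at 1 FPKM or more in both libraries, led by Csf1r, then Csf2ra, a subunit of the GM-CSF receptor, at 262 and 150.2 FPKM, Tnfrsf1b at 148 and 219 FPKM and Il10rb at 175 and 100.3 FPKM. Il4ra, the IL-4 receptor chain, was at 25.3 and 41.1 FPKM and its partner Il2rg at 143 and 128 FPKM, in cells that had not received IL-4. Il1r1, Il1r2 and Il18r1 were under 1 FPKM. Of 25 Toll-like receptor and nucleic acid sensor genes 23 were detected in both. Tlr13, a sensor of bacterial ribosomal RNA, was at 116 and 67.4 FPKM, Tlr2 at 35 and 47.3 FPKM, Tlr7 at 30.8 and 33.9 FPKM and Tlr4 at 18.9 and 12.8 FPKM, while Tlr5 and Tlr12 were under 1 FPKM in both. All 22 Fc receptor and adaptor genes were detected in both. Trem2, a lipid receptor that signals through DAP12, was at 1267 and 537 FPKM, Sirpa, the receptor for CD47, at 835 and 575 FPKM and Fcgr3 at 401 and 260.3 FPKM.

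Secreted signals were uneven. Spp1, osteopontin, had the highest mean of the cytokines at 1422 and 617 FPKM, with Grn, progranulin, at 815 and 944 FPKM the higher of the pair in replicate 2. Lower were Mif at 414 and 479 FPKM and Tgfb1 at 241 and 186 FPKM. Of 30 cytokines 13 were under 1 FPKM in both libraries. These include Il6 at 0 and 0.467 FPKM, Il12b at 0.144 and 0.062 FPKM, Ifnb1 at 0 and 0.345 FPKM, and Il4, Il13 and Ifng, listed at 0 in both. Tnf was at 12.6 and 53.9 FPKM and Il1b at 6.63 and 5.06 FPKM. Complement C1q chains were abundant, with C1qb at 2017 and 1174 FPKM, C1qc at 1404 and 856 FPKM and C1qa at 489.9 and 194 FPKM. Serping1, the C1 inhibitor, reached 1 FPKM in replicate 1 only, at 11.3 and 0.403 FPKM. Of 18 scavenger and uptake receptors 14 were at 1 FPKM or more in both libraries, with Cd36 at 202 and 125 FPKM, Lrp1 at 198 and 121 FPKM and Msr1 at 153 and 84.5 FPKM, and Mrc1, the mannose receptor, was at 40.8 and 29.4 FPKM. Cd163, the haptoglobin receptor, was at 0.0785 and 0.090 FPKM, below the limit of 1 FPKM.

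Of 18 classical activation genes 12 were at 1 FPKM or more in both libraries, and of the 13 with a mean of at least 1 FPKM 6 were over 2-fold higher in replicate 2, against 4.78% of all genes. Nos2 was at 0.108 and 4.84 FPKM, under 1 FPKM in replicate 1. Of 17 alternative activation genes 5 were at 1 FPKM or more in both libraries and 8 in neither. Arg1 was at 0.0444 and 0.685 FPKM, under 1 FPKM in both libraries. Retnla was at 0.323 and 12.1 FPKM, and Ccl17 was listed at 0 in both. Chi3l3, a chitinase-like secreted protein (now Chil3) with close relatives that may share reads, was at 0.844 and 999 FPKM. In replicate 2 it alone made most of the list's sum, which was 81.4 and 1109.7 FPKM.

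Some members of the tissue macrophage lists were detected: 5 of 10 microglia, 4 of 8 Kupffer cell, 5 of 11 alveolar, 2 of 9 peritoneal and 5 of 7 red pulp genes were at 1 FPKM or more in both libraries. Over all symbols this held for 9952 of 23354, so the counts alone do not show any of these cell types. Of the Kupffer cell list Marco had the highest mean, at 14.7 and 412 FPKM. Cd5l was at 42.6 and 122 FPKM, Id3 at 248 and 59.6 FPKM and Folr2 at 65.6 and 19.6 FPKM, while Clec4f was listed at 0 and Timd4 and Vsig4 were under 1 FPKM. Of the red pulp list Spic, a haem-responsive factor, was at 3.52 and 13 FPKM. Of the microglia list Fcrls was at 89 and 360.1 FPKM and Tmem119 at 2.71 and 3.0 FPKM, with Sall1 listed at 0. The alveolar list summed to 114 and 1507 FPKM, led by Chi3l3 at 0.844 and 999 FPKM and Marco. Gata6, the factor of peritoneal macrophages, and Car4 and Fabp1 of the alveolar list were listed at 0 in both.

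Many markers of other lineages were under the detection limit of 1 FPKM. Of 27 marker lists 4 had no member at 1 FPKM or more in both libraries: mast cell and basophil (11 members), muscle (11), germ cell (10) and hepatocyte (10). The summed level of the mast cell list was 1.15 and 0.959 FPKM, of muscle 0.613 and 0.598, of germ cell 0.13 and 0.313 and of hepatocyte 2.35 and 0.522. The hepatocyte gene Apoa2 was above 1 FPKM in replicate 1 only, at 1.57 and 0.456 FPKM. Tpsb2, Cma1, Myod1, Prm1 and Nanog were listed at 0 in both libraries.

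Few lymphoid genes passed. Of 15 T cell genes 3 were at 1 FPKM or more in both: Il7r at 84.7 and 55.5 FPKM, Cd28 at 17.7 and 6.57 FPKM and Cd4 at 7.6 and 1.87 FPKM. The defining T cell genes Cd3d, Cd3e, Cd3g, Cd8a and Lck were at 0.00949 to 0.306 FPKM. Of 11 NK cell genes only Ccl5, a chemokine, passed, at 184 and 213 FPKM, and Ncr1, Gzma and Prf1 were each listed at 0 in 1 library. Of 15 B cell genes Sdc1, Cd22 and Cd79b passed, at 32.4 and 20.1 FPKM, 11.6 and 7.19 FPKM and 1.5 and 11.8 FPKM. Ms4a1 was at 0 and 0.0438 FPKM, and Pax5 was listed at 0 in both.

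Markers of other marrow lineages were detected in part, beside 9952 of all 23354 symbols at 1 FPKM or more in both libraries. Of 13 erythroid genes only Tfrc passed, and the globins Hba-a1 and Hbb-b2 were at 0.0912 and 0.793 FPKM and at 0.0779 and 0.0699 FPKM. Of 16 neutrophil genes 5 passed, among them S100a8 at 20.8 and 33.1 FPKM and Csf3r at 27.5 and 24.6 FPKM. Lcn2, lipocalin 2, was the lowest of the 5 in replicate 1 and the highest in replicate 2, at 2.74 and 73 FPKM. The granule genes Elane, Mpo, Ctsg and Camp were under 1 FPKM in both. Of 12 progenitor genes Cd48, Ly6a and Procr passed, at 120.2 and 112 FPKM, 26 and 112 FPKM and 11.7 and 26.9 FPKM, while Kit, Flt3 and Myb were under 1 FPKM. Of 10 megakaryocyte genes 4 passed, led by the platelet chemokine Pf4 at 81.6 and 136 FPKM, and Gp6 was under 1 FPKM. Of the 7 with a mean of at least 1 FPKM, 4 were over 2-fold higher in replicate 2, against 4.78% of all genes, and none in replicate 1. These were Vwf at 4.6 and 13.9 FPKM, Treml1 at 1.35 and 5.93 FPKM, Ppbp at 0.495 and 6.46 FPKM and Gp9 at 0.345 and 2.25 FPKM.

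Of 13 monocyte genes 8 were at 1 FPKM or more in both libraries, and the list summed to 97.7 and 1043 FPKM. Of the 9 with a mean of at least 1 FPKM, 1 was within 1.5-fold, against 78.5% of all genes. The highest by mean parted by library in both directions. Chi3l3 was at 0.844 and 999 FPKM and Ms4a4c at 1.48 and 23.8 FPKM, whereas Fn1 was at 60.7 and 3.46 FPKM and Cx3cr1 at 13.8 and 1.26 FPKM. Ly6c2 was at 2.66 and 3.87 FPKM, Plac8 at 3.68 and 5.94 FPKM, and Ccr2, the receptor that draws monocytes from marrow, at 0.688 and 0.906 FPKM. Of 14 dendritic genes 9 were under 1 FPKM in both, among them Flt3, Zbtb46, Xcr1 and Siglech. Itgax, CD11c, was at 58.1 and 67 FPKM. Osteoclasts arise from the same progenitors, and of 12 of their genes 8 passed, with Atp6v0d2, a proton pump subunit, at 215 and 153 FPKM and Acp5, the phosphatase TRAP, at 51.5 and 111 FPKM; Calcr and Oscar were listed at 0. Of 11 epithelial genes only Tjp3 passed, of 12 neural genes only Mbp, and of 6 eosinophil genes only Siglec5. Of 11 endothelial genes 4 passed, led by Eng at 15 and 16.6 FPKM, while Tek was listed at 0. Of 9 adipocyte genes Lpl, Fabp4 and Pparg passed, and Adipoq and Plin1 were under 1 FPKM. Of 10 osteoblast genes Spp1 and Runx2 passed in both.

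**Figure D4:**
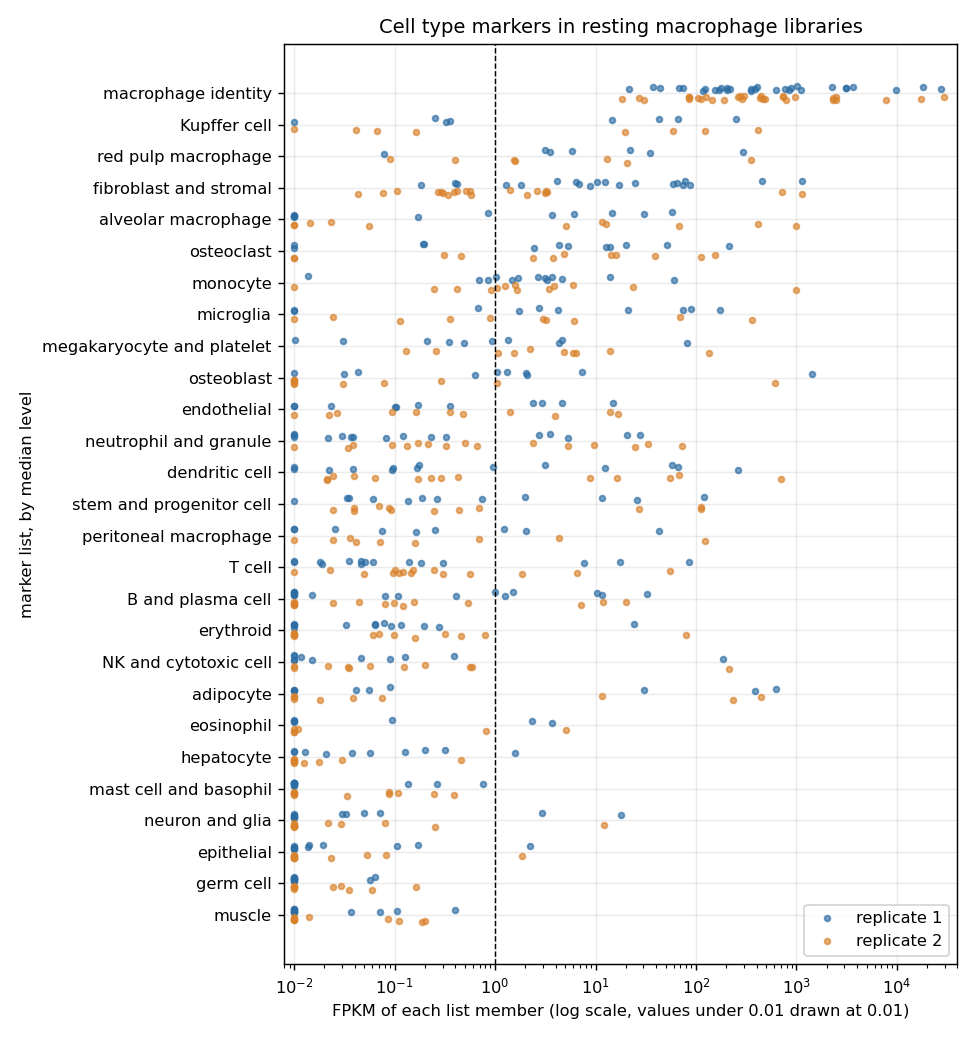
FPKM of each member of each cell type marker list (horizontal axis, log scale, values under 0.01 drawn at 0.01), coloured by library, lists ordered by median; the dashed line marks 1 FPKM. The 30 macrophage identity genes all lie above 10 FPKM in both libraries, mast cell, germ cell and muscle markers lie below 1 FPKM, and the stromal markers part by library.

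The levels of most genes were close in both libraries. Of 10478 genes with a mean of at least 1 FPKM, 8230 (78.5%) were within 1.5-fold and 1057 (10.1%) were over 2-fold apart, 501 of them (4.78%) higher in replicate 2 and 556 (5.31%) higher in replicate 1. Across these genes, which are not independent replicates and share library and depth, Pearson's r of log2(FPKM + 1) was 0.930 and Spearman's rho 0.924, as a description. The median log2 ratio of replicate 2 to replicate 1 was -0.06. Deposited intervals did not overlap for 6284 genes (60.0%), and 4113 of these were within 1.5-fold, so a gap between intervals often meant a small difference. The share within 1.5-fold was 74.7% at 1 to 10 FPKM, 82.5% at 10 to 100, 80.4% at 100 to 1000 and 85.9% above 1000 FPKM.

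Among the 200 leading genes the 20 smallest ratios were at most 1.04-fold. Rpl3 was at 489.9 and 489.6 FPKM, Vim at 1135 and 1132 FPKM, and Gnas and Gnai2, G protein alpha subunits, at 535 and 536 FPKM and at 411 and 413 FPKM. Of these 20 genes 12 encode ribosomal proteins. Cyba, a subunit of the phagocyte oxidase, was at 1000.2 and 963 FPKM. Of the top 100 genes 85 were within 1.5-fold and 6 were over 2-fold apart. Apoe, Trem2 and Spp1 were higher in replicate 1, and Cd52, Saa3 and Ifitm3 in replicate 2. Saa3, an acute-phase apolipoprotein, was at 456 and 2214 FPKM and Ifitm3, an antiviral membrane protein, at 627 and 1361 FPKM.

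**Figure D5:**
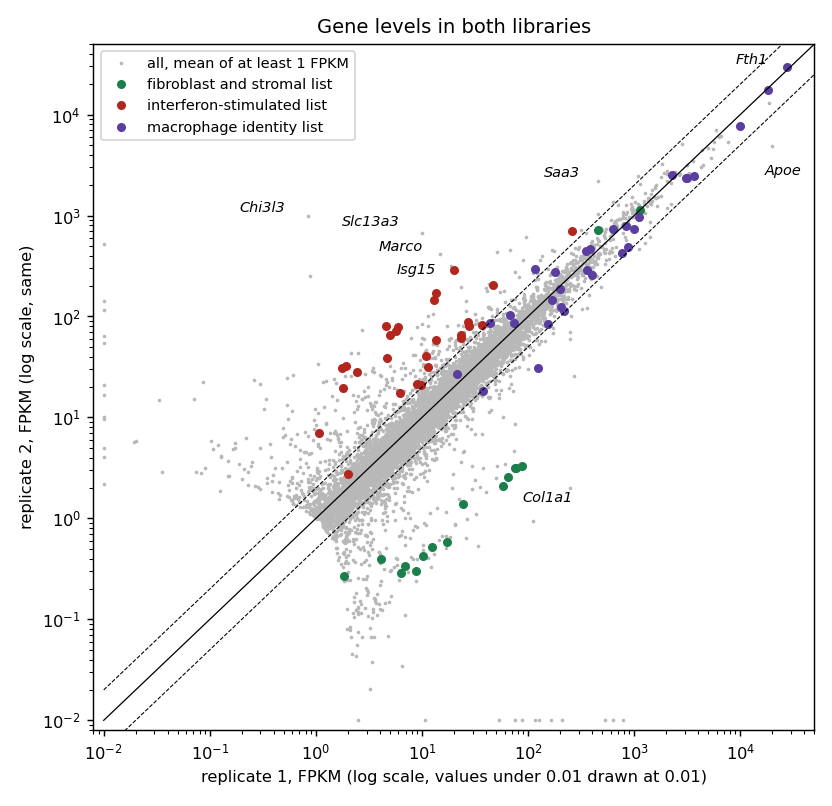
FPKM in replicate 2 (vertical axis) against replicate 1 (horizontal axis), both on log scales, for genes with a mean of at least 1 FPKM; the solid line marks equal levels and the dashed lines 2-fold. Most macrophage identity genes lie near the diagonal, interferon-stimulated genes above it and all but the highest stromal markers, Vim and S100a4, below it.

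The genes higher in replicate 1 included collagens and other matrix genes. Among genes with a mean of at least 10 FPKM, at least 1 FPKM in both libraries and intervals that do not overlap, the 12 largest ratios were those of H2-L, Serpinf1, Col1a2, Timp1, Ctgf, Col1a1, Bgn, Sparc, Aebp1, Tagln, Postn and Fn1, from 17.5-fold for Fn1 to 123-fold for H2-L. The ratio of H2-L is uncertain, because its row overlaps that of H2-D1. Col1a1 and Col1a2, the chains of type I collagen, were at 65 and 2.59 FPKM and at 58.4 and 2.08 FPKM. Sparc, a collagen-binding protein, was at 74.8 and 3.19 FPKM, Bgn, the proteoglycan biglycan, at 77.2 and 3.14 FPKM and Postn, periostin, at 24.6 and 1.4 FPKM. Of the 16 fibroblast and stromal markers with a mean of at least 1 FPKM, 14 were over 2-fold higher in replicate 1 and none in replicate 2, against 5.31% and 4.78% of all genes. Vim and S100a4 were at 1135 and 1132 FPKM and at 453 and 717 FPKM. Lum, Fap and Thy1 were under 1 FPKM in both. The osteoblast genes Alpl and Sp7 were at 7.39 and 0.292 FPKM and at 2.09 and 0.078 FPKM. In the 6 other libraries Col1a1 was at 31.1 to 203 FPKM where numbered 1 and at 0.444 to 2.21 FPKM where numbered 2. The part of stromal RNA in other differences was not tested.

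The genes higher in replicate 2 included many induced by interferon. By the same rule the 12 largest ratios were those of Slc13a3, Tmtc4, Marco, Lcn2, I830012O16Rik, Fcrl5, Slc35g1, Mx1, Usp18, Pim2, Ndrg1 and Oasl1, from 16.7-fold for Oasl1 to 67.1-fold for Slc13a3. Slc13a3, a dicarboxylate transporter, was at 9.95 and 667 FPKM and Marco, a scavenger receptor, at 14.7 and 412 FPKM. Of 27 interferon-stimulated genes with a mean of at least 1 FPKM, 26 were over 2-fold higher in replicate 2, against 4.78% of all genes, and 1 was within 1.5-fold. Isg15, a ubiquitin-like modifier, was at 20.1 and 286 FPKM, Irf7, a factor that amplifies interferon, at 46.2 and 203 FPKM, Ifit3 at 13.5 and 172 FPKM, Usp18, which removes ISG15, at 4.55 and 79.6 FPKM and Mx1 at 1.77 and 31.2 FPKM. Bst2, tetherin, was the highest of the list at 259.6 and 704 FPKM. The type I interferon gene Ifnb1 was under 1 FPKM in both, and the receptor genes Ifnar1 and Ifnar2 were at 25.8 and 15 FPKM and at 116 and 74.4 FPKM.

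Many chemokines were also higher in replicate 2: of 17 with a mean of at least 1 FPKM, 10 were over 2-fold higher there and 2 in replicate 1, against 4.78% and 5.31% of all genes. Ccl3 was at 51.1 and 437 FPKM, Ccl4 at 42.8 and 211 FPKM, Ccl2 at 9.99 and 61.7 FPKM and Ccl8 at 0.873 and 249 FPKM, while Ccl6, Ccl9, Ccl5 and Cxcl16 were within 1.5-fold. The 2 higher in replicate 1 were Cxcl12 and Cxcl14, at 12.4 and 0.515 FPKM and at 8.62 and 0.836 FPKM; Cxcl12 is also a stromal marker here. In the other libraries numbered 1, Isg15 was at 14 to 33 FPKM, Slc13a3 at 2.41 to 6.61, Marco at 3.36 to 17.5 and Ccl8 at 1.20 to 3.42 FPKM. In those numbered 2 they were at 214 to 283, 431 to 806, 194 to 271 and 279 to 513 FPKM.

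Interferon-stimulated promoters are known for a response element with the letters GAAANNGAAA, shown here because 26 members were higher in replicate 2 together. On both strands it occurred in 13 of 21 windows of the interferon list (61.9%), in 3 of 17 translation factor windows (17.6%), in 6 of 60 ribosomal windows (10%) and in 568 of all 16993 (3.34%). Among genes with a mean of at least 10 FPKM it was in 37 of 180 windows over 2-fold higher in replicate 2 (20.6%), in 4 of 104 over 2-fold higher in replicate 1 (3.85%) and in 88 of 3441 within 1.5-fold (2.56%). Some of the 37 are also in the interferon list, among them Bst2, Isg15, Ifit3 and Oas3, so these shares overlap. AGGAAGT was in as many of the 180 windows (20.6%), in 12 of the 104 (11.5%) and in 336 of the 3441 (9.76%). A match is a description of the letters and not a bound site. The stretches of the 4 highest list members with a match follow with matches in capitals, overlapping matches running together. They lie at chr8:71537567-71537622 (minus strand), chr4:156200855-156200916 (minus strand), chr19:34583353-34583436 (plus strand) and chr5:120777705-120777754 (minus strand).
Bst2: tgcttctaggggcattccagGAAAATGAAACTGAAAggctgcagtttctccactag
Isg15: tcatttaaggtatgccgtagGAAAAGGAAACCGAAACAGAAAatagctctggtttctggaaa
Ifit3: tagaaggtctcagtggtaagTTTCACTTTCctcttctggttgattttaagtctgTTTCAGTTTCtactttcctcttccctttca
Oas3: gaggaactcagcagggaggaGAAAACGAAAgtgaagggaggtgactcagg

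A few symbols were at 10 FPKM or more in 1 library and under 1 FPKM in the other, 34 with the higher value in replicate 1 and 22 in replicate 2. Small RNA symbols made up 10 and 4 of them. Mir326, Mir703, Snora65 and Mir223 were listed at 791, 627, 526 and 207 FPKM in replicate 1 and at 0 in replicate 2, while Mir546 and Snora21 were listed at 527 and 143 FPKM in replicate 2 and at 0 in replicate 1, where values under 1e-06 FPKM are given as 0. Of 19 small RNA symbols with a mean of at least 10 FPKM, 14 (73.7%) were listed at 0 in 1 library, against 2 of 5253 other symbols (0.0381%). Very short transcripts turn few fragments into high FPKM, and what their part is in these zeros was not tested. Among the other 18 symbols seen in replicate 2 only, Chi3l3 and Ccl8 were at 0.844 and 999 FPKM and at 0.873 and 249 FPKM. The other 24 seen in replicate 1 only include Mgp, Col6a1, Timp3 and Cxcl12, all matrix or stromal genes, chosen after their values were seen.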

How the data were processed

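The deposited gene tables of both untreated Ern1f/f libraries give FPKM, which the authors made, with a confidence interval and a status for each row. TopHat 1.4.1, Cufflinks 1.3.0 and the mm10 build are named per the submitters' processing notes. The source of the gene models, the use of strand and the library selection are not given in the sources used here. Read counts were not used. Depth was implied from the interval widths of genes with 1 coding transcript in GENCODE M21.

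Rows sharing a symbol were summed (243 symbols). Groups came from titles. Detection was set at 1 FPKM, close levels at 1.5-fold and distant ones at 2-fold, with no pseudocount and no test, since the data are 1 group of 2 libraries. There were 27 marker and 33 function lists; Ly6g, Trac, Ahsp and C5 were not analysed here. The members and lists were chosen with earlier results of these data known. Named were the 50 highest genes, up to 6 leading members of each list and where absence is described its members under 1 FPKM, the 12 largest ratios on each side and up to 8 genes on each side seen in 1 library only, and the 20 closest of the top 200. Further genes were named after their values were seen, as a list's known members. Older symbols were matched through RefSeq synonyms. The scripts were tested on simulated data. Python 3.11.15, pandas 2.3.3 and matplotlib 3.10.9 were used. Alternatives covered rows per symbol, status, scaling, thresholds, filters, the genotype field and each library left out.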

Additional observations from a re-analysis of the deposited data

How the results depend on the processing

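Of 286 alternative values over 29 results, 249 stayed within the spread between libraries, or within 1.5 times for counts. For levels and shares, leaving out 1 library stays within that spread by arithmetic, so those values are no evidence of stability. Fth1 was first in each alternative that gives a rank. On the TPM scale, which raises each level because total FPKM was 596024 and 582297, its level was 48190.0. With groups by the genotype field its level was 26641 FPKM, the share of the top 100 stayed within the spread, and 295 genes were over 2-fold apart, against 1057. The number of marker lists with no member detected in both libraries, 4 at 1 FPKM, was 1 at 0.1 FPKM, 7 at 5 FPKM, 0 for any value above 0 and 2 for a lower bound above 0. Genes within 1.5-fold numbered 4339 at a mean of at least 10 FPKM, where fewer genes are compared. Genes over 2-fold apart numbered 2332 at a mean of at least 0.1 FPKM, 541 at 5 and 390 at 10, 4770 with no filter, 387 with a pseudocount of 5, 2248 over 1.5-fold and 561 over 3-fold. The ribosomal share was 20.0% with the rows on ribosomal genes under other symbols. Without the stromal and interferon lists 8228 genes were within 1.5-fold and 1017 over 2-fold apart. Both of these alternatives were chosen after seeing the data. Without either library in turn, Fth1 was at 27339.6 to 29412 FPKM, the share of the top 100 was 45.9% to 48.0%, detected genes numbered 10227 to 10523 and lists without a detected member 3 to 4; the agreement of a pair has no value with 1 library. No paired analysis was possible because the results come from no test and concern 1 group. With 2 libraries the spread is known poorly, and levels under 1 FPKM rest on few fragments.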

Other observations

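Respiratory chain and ATP synthase genes encoded in the nucleus held 2.52% and 2.67% of total FPKM, and 81 of 88 with a mean of at least 1 FPKM were within 1.5-fold, against 78.5% of all genes. Cox8a was at 723 and 933 FPKM, Cox6a1 at 764 and 790.0 FPKM and Atp5b at 277 and 367 FPKM, while Cox7b2, Cox8b and Cox8c, forms of other tissues, were listed at 0. Glycolysis genes held 0.628% and 0.822%, and 17 of 22 were within 1.5-fold, with Aldoa at 780.2 and 1091 FPKM, Gapdh at 789 and 976 FPKM and Pkm at 685 and 904 FPKM. Of the hexokinases Hk3 was the highest at 133 and 135 FPKM, and Hk1 was at 27.9 and 27.6 FPKM. Endoplasmic reticulum genes held 0.34% and 0.374%, with Hspa5, the chaperone BiP, at 175 and 192 FPKM, and the sensors Ern1, Eif2ak3 and Atf6 at 11.5 and 9.55 FPKM, 6.37 and 3.93 FPKM and 14.3 and 16.7 FPKM. Ern2, the gut form, was listed at 0.

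Cell cycle genes were detected at low level. All 31 proliferation genes were at 1 FPKM or more in both libraries, with Pcna at 227 and 205 FPKM, Mki67 at 7.39 and 5.15 FPKM, Top2a at 10.4 and 6.66 FPKM and Ccnb1 at 5.68 and 4.31 FPKM. Cdkn1a, the inhibitor p21, was at 40.5 and 190.2 FPKM and was the 1 member of 31 over 2-fold higher in replicate 2, against 4.78% of all genes. Another 4 were over 2-fold higher in replicate 1, against 5.31% of all genes. They were Rrm2 at 15 and 5.85 FPKM, Ccna2 at 7.41 and 3.35 FPKM, Plk1 at 6.8 and 2.57 FPKM and Ccnd2 at 4.0 and 1.72 FPKM. Of the redox genes Mt1 and Mt2, metallothioneins, were at 485 and 752 FPKM and at 67.6 and 451 FPKM, and Prdx1 at 957 and 1514 FPKM. The Y-linked genes Ddx3y and Eif2s3y were at 10.3 and 9.03 FPKM and at 21.2 and 22.2 FPKM, and Xist was at 0 and 0.00222 FPKM, in cells whose growth protocol names male C57BL/6J mice. The 45S ribosomal RNA symbol Rn45s was at 1829 and 3249 FPKM.

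For the lists that follow, also chosen with earlier results known, the share of all symbols at 1 FPKM or more in both libraries was 9952 of 23354. Of 18 S100, annexin and galectin genes 17 were at 1 FPKM or more in both libraries, with Lgals3, galectin 3, at 3083 and 2331 FPKM. Of 26 integrin and adhesion genes 24 passed, with Itgb2, the CD18 chain, at 385 and 465 FPKM. Of 24 chaperone and proteasome genes 23 passed, with Hspa8 at 962 and 1192 FPKM. Of 21 matrix proteases and inhibitors 18 passed, and Mmp12, macrophage elastase, was at 129 and 365 FPKM. Of 16 chemoattractant receptors 13 passed, and the formyl peptide receptors Fpr1 and Fpr2 were at 25.7 and 141 FPKM and at 9.99 and 83.6 FPKM. Of 18 lysozyme and antimicrobial genes 12 passed, with Mpeg1, perforin-2, at 884 and 486 FPKM. Of 73 histone symbols, many of them near copies whose reads may be split, 20 passed and 43 were under 1 FPKM in both. The mitochondrially encoded genes were not analysed here.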
